A study of Mus musculus with 19 samples.

Results

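The circadian clock genes described here were Per1, Per2, Per3, Cry1, Cry2, Arntl, Clock, Nr1d1, Nr1d2 and Dbp, 10 of the 27845 gene names on the arrays. They were chosen by gene name, and every probe that carries one of these names was used, 18 probes in all. All 18 passed the filter on dim probes (red signal well above background on at least 4 arrays), held a value on all 19 arrays and were never saturated. RNA came from dissociated mouse hippocampal neurons kept for 21 days in culture and treated for 6 h in 6-well plates. The groups were vehicle (5 arrays), 100 µM AP5 (5 arrays), 100 nM NVP-AAM077, called NVP here (4 arrays), and 1 µM of a compound that the sample titles call Ro25 (5 arrays). AP5 competes with glutamate for all NMDA receptors, and NVP does so with a limited preference for those containing GluN2A. The full name of Ro25 in the labels shares its prefix, but not its number, with a known GluN2B antagonist, so which compound it was is not settled. The doses of the 3 compounds differed and were not matched. Each array set neuron RNA (Cy5, red) against a universal mouse reference RNA (Cy3, green), and a level below is the log2 ratio of red over green, which can be compared between arrays for 1 probe but not between probes.

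Clock and Arntl (also called BMAL1) form a heterodimer that binds E-box sequences and activates the Per and Cry genes, whose proteins return to block it. A side loop runs through the nuclear receptors Nr1d1 and Nr1d2, which repress Arntl, and the factor Dbp carries the rhythm to output genes through D-box sequences. In the brain's pacemaker, the suprachiasmatic nucleus, glutamate acting on NMDA receptors after light induces Per1 and Per2, and the same genes are transcribed in the hippocampus outside that pacemaker. The arrays sampled 1 time after treatment, so they give levels and not the phase or amplitude of a rhythm.

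Per2, Cry2, Arntl and Nr1d2 passed the test over all 4 groups, and Cry1 did not. The sequence before the start site of Cry2, Arntl and Nr1d2 is shown beside that of Cry1. The clock acts on its own genes through short motifs in such sequence. Each sequence is 250 bases long, ends at the base before the RefSeq start and is from the GRCm38.p6 build. RefSeq windows matched 9 of the 10 genes (13 windows) and the table used here held none for Per2. Capitals mark the letters of an E-box (CACGTG), an E-prime box (CACGTT), a cAMP response element (TGACGTCA), a D-box (TTATGTAA or TTACGTAA) or the AGGTCA core bound by nuclear receptors, on either strand.
Cry2 (chr2:92434070-92434319, minus strand): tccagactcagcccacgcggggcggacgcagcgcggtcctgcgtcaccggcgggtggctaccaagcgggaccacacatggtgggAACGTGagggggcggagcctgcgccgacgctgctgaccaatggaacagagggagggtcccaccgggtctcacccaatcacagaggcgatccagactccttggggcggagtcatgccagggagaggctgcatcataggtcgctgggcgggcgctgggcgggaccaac
Arntl (chr7:113207215-113207464, plus strand, the first of 2 overlapping windows): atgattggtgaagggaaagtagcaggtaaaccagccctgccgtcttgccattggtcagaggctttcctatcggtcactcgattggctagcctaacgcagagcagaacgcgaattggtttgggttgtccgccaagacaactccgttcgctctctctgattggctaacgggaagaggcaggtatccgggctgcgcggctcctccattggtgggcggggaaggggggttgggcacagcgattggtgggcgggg
Nr1d2 (chr14:18239107-18239356, minus strand): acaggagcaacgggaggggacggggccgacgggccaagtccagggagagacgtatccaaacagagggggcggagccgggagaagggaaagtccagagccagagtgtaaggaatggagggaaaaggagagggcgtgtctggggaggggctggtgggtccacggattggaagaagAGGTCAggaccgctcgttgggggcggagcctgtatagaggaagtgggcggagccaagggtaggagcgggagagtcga
Cry1 (chr10:85185055-85185304, minus strand): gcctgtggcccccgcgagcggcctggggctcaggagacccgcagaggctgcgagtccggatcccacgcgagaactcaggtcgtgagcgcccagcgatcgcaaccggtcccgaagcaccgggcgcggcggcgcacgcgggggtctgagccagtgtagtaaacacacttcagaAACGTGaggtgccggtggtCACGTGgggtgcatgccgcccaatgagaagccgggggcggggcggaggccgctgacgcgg

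Cry1 held an E-box 60 to 55 bases before its start and an E-prime box 79 to 74 bases before it. Cry2 held an E-prime box 166 to 161 bases before its start, and Nr1d2 an AGGTCA core at 77 to 72 bases. None of the letters searched was present in either window of Arntl. Among the other members, Per1 held an E-box 166 to 161 bases before 1 of its 2 starts and an AGGTCA core at 137 to 132 bases, Nr1d1 an E-prime box at 28 to 23 bases, and 1 window of Clock an AGGTCA core at 119 to 114 bases. Per3 held 2 D-boxes, at 205 to 198 and 158 to 151 bases. No cAMP response element was found, and no matches of different motifs overlapped. Over all 32851 windows of the table, 6.02% held the E-box, 3.85% the E-prime box, 1.55% the cAMP response element, 0.931% the D-box and 14.0% the AGGTCA core. A match is a description of letters, not of binding, and these windows leave out sites farther away or downstream. Variants of the letters were not searched, so a window without a match can still hold a site.

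Against vehicle, AP5 changed 5 of the 18 clock probes, each of a different gene. Per2, Cry2 and Arntl were lower and Nr1d2 and Clock were higher (limma, Benjamini-Hochberg adjusted over all 28650 probes tested, threshold 0.05). The share of member probes called was 27.8%, where 17.0% of all probes tested were called (10.2% higher and 6.76% lower). The median log2 difference was -0.04 over the 18 member probes and 0.01 over all probes. For 4 of the 18 probes (Per2, Cry2, Arntl, Nr1d2) no AP5 array overlapped a vehicle array, where 11.4% of all probes did so. Whether the arrays of a group hold RNA of separate cultures is not stated in the labels, so the p-values here measure the spread between samples, which may be technical. In RNA from whole cultures, fewer cells of a type and less RNA per cell cannot be told apart.

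**Figure D1:**
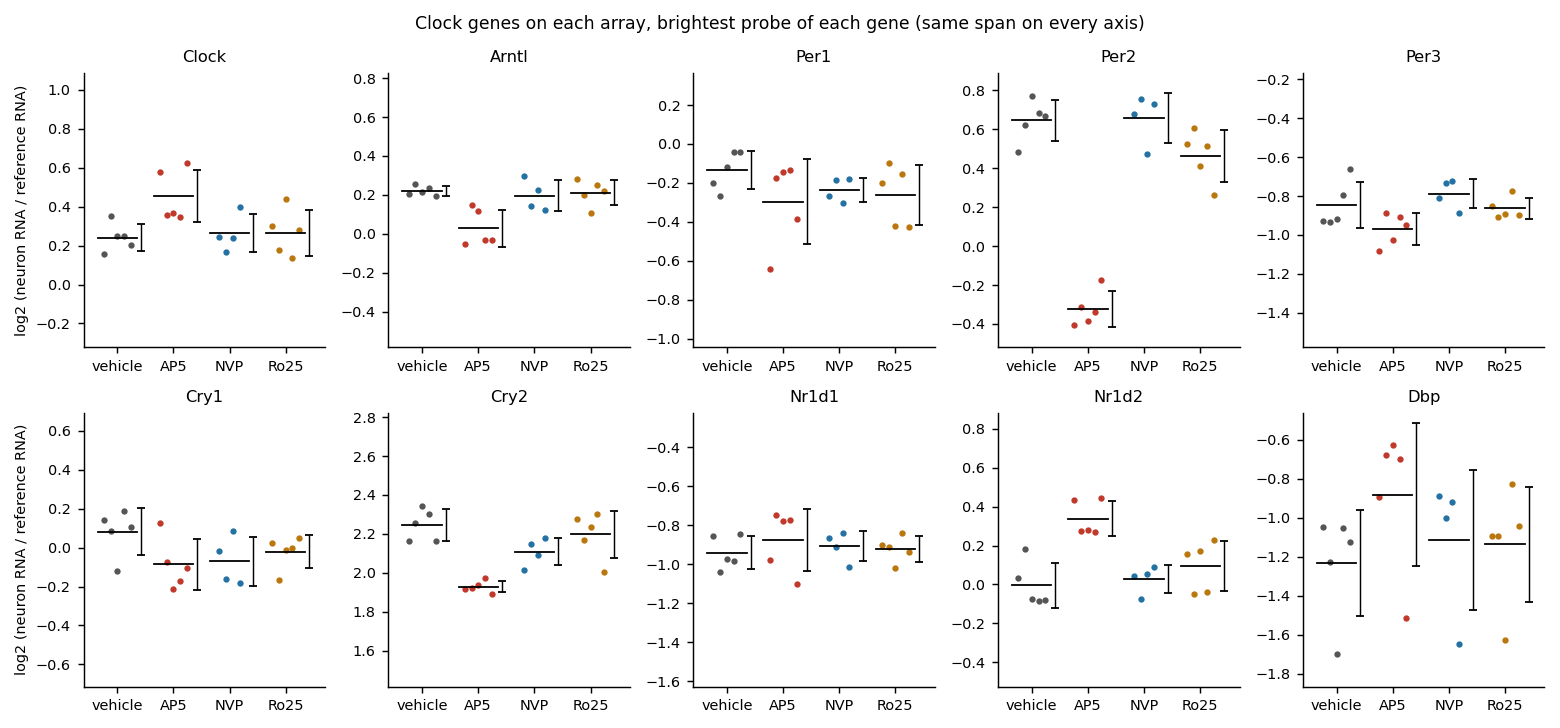
Log2 ratio of neuron RNA over reference RNA (y axis) on each array for the brightest probe of each clock gene, with arrays in columns by treatment, the group mean as a horizontal line and its SD as a bar. The 5 AP5 arrays of Per2 lie between -0.40 and -0.17, below every other array of that gene.

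Per2 encodes a period protein, a repressor of the Clock and Arntl pair, and showed the largest difference of the 18 probes. The log2 ratios of its brighter probe (A_51_P282760, chr1:93246875-93246934, minus strand, mm8) were 0.49, 0.62, 0.77, 0.68 and 0.67 on the vehicle arrays and -0.40, -0.31, -0.38, -0.34 and -0.17 on the AP5 arrays. They were 0.68, 0.75, 0.47 and 0.73 with NVP and 0.52, 0.61, 0.41, 0.51 and 0.26 with Ro25. Every AP5 array was thus below 0 and every array of the other groups above it, so AP5 overlapped no other group, while vehicle, NVP and Ro25 overlapped each other. The mean fell from 0.65 ± 0.10 (SD, n = 5) with vehicle to -0.32 ± 0.09 (n = 5) with AP5. That was a log2 difference of -0.97 (SE 0.07, 95% interval -1.12 to -0.82, limma adjusted p = 5.16e-08), or 1.96-fold lower (1.76 to 2.17). It ranked 24 by p among the 28650 probes. The difference lay in the neuron channel, with -1.06 (limma adjusted p = 1.75e-07) for red alone and -0.01 (limma adjusted p = 0.859) for the reference channel.

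The second Per2 probe (A_52_P536869, chr1:93270367-93270426, minus strand, mm8) did not show this fall. Its log2 ratios were 0.01, 0.07, 0.17, -0.02 and 0.06 with vehicle and 0.11, 0.24, 0.21, -0.05 and 0.27 with AP5, and the groups overlapped. The log2 difference was 0.09 (95% interval -0.03 to 0.22, limma adjusted p = 0.32), which does not include the size seen with the first probe. This probe was dim, with a median red signal of 148 against 586 for the first, and its red and green channels each differed by -0.20 and -0.21. The probes lie 23.6 kb apart, and the first is the nearer to the 3′ end of the gene. The fall of Per2 was thus seen with 1 of its 2 probes. Which exons the probes of the members lie in was not analysed here.

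In genes with more than 1 probe, the calls with AP5 (Per2, Cry2 and Clock) fell on the brightest probe. In 4 of the 5 genes with more than 1 probe (Per2, Cry2, Clock and Nr1d1, but not Cry1), the brightest probe was the one nearest the 3′ end. Of the 10 probes that were the brightest of their gene, 5 were called with AP5, where 17.0% of all probes tested were. Per1, Per3, Arntl, Nr1d2 and Dbp had only 1 probe, so the calls of Arntl and Nr1d2 compare no probes. Of the 8 dimmer probes none was called, with log2 differences from -0.18 to 0.12 and limma adjusted p-values of 0.0513 or more. The share called by brightness over all probes was not analysed. The offset of 50 used in the background correction draws the ratios of dim probes toward 0, and its part in the absence of calls was not tested.

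**Figure D2:**
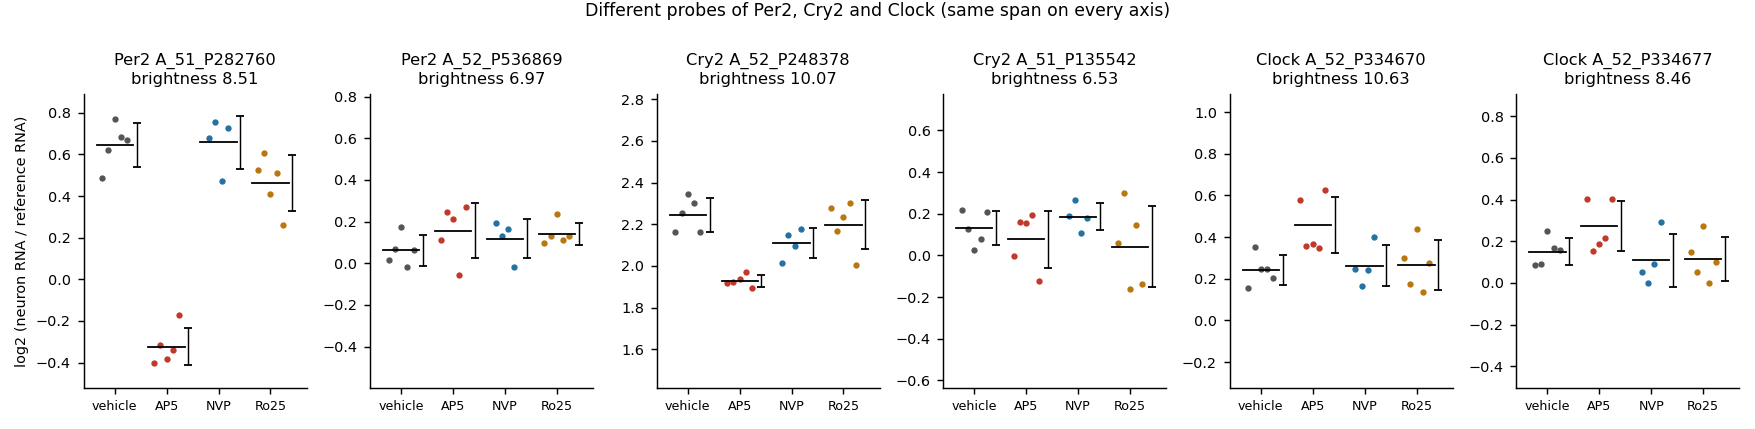
Log2 ratio of neuron RNA over reference RNA (y axis) by treatment for a pair of probes each of Per2, Cry2 and Clock, with each array as a point, the mean as a line and the SD as a bar, and each probe's mean brightness (log2 intensity) above its panel. The AP5 arrays lie apart from vehicle for the brighter probe of Per2 and of Cry2, and overlap vehicle for the dimmer one.

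Of the activators, Arntl was called lower with AP5 and 1 of the 4 Clock probes higher. Arntl (A_52_P267651, chr7:113104645-113104704, plus strand, mm8) was at 0.20, 0.26, 0.21, 0.24 and 0.19 with vehicle and at -0.05, 0.15, 0.12, -0.03 and -0.03 with AP5. All 5 AP5 arrays were below the lowest vehicle array. The mean fell from 0.22 ± 0.02 (SD, n = 5) to 0.03 ± 0.10 (n = 5), a log2 difference of -0.19 (SE 0.05, 95% interval -0.30 to -0.08, limma adjusted p = 0.0143), or 1.14-fold. The vehicle arrays of Arntl spread over a much narrower range than the AP5 arrays. NVP arrays were at 0.30, 0.14, 0.22 and 0.12 and Ro25 arrays at 0.28, 0.20, 0.11, 0.25 and 0.22, and both groups overlapped vehicle as well as AP5.

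Clock, the partner of Arntl, had 4 probes, of which 1 was called. That probe (A_52_P334670, chr5:77287127-77287186, minus strand, mm8) was at 0.16, 0.35, 0.25, 0.25 and 0.20 with vehicle and at 0.58, 0.36, 0.37, 0.35 and 0.63 with AP5. AP5 1 and AP5 5 were high, and AP5 4 lay at the level of vehicle 2, the highest vehicle array, so the groups overlapped. The log2 difference was 0.21 (SE 0.07, 95% interval 0.07 to 0.36, limma adjusted p = 0.0391), or 1.16-fold higher. The other 3 probes were at 0.12, -0.08 and 0.09 (limma adjusted p = 0.234, 0.385 and 0.45). The Clock call was lost when AP5 1, AP5 5 or vehicle 1, 3, 4 or 5 was left out, with adjusted p-values up to 0.104. It was kept in 6 of 16 other settings, and it did not pass the test over all 4 groups (limma adjusted p = 0.139).

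Among the repressors, Cry2 fell besides Per2. Cry2 encodes a cryptochrome, which partners the period proteins. Its brighter probe (A_52_P248378, chr2:92205045-92205104, minus strand, mm8) was at 2.16, 2.26, 2.35, 2.30 and 2.16 with vehicle and at 1.92, 1.92, 1.94, 1.97 and 1.89 with AP5. The AP5 arrays lay within a span of less than 0.1 and all were below every vehicle array. The mean went from 2.25 ± 0.08 (SD, n = 5) to 1.93 ± 0.03 (n = 5), a log2 difference of -0.32 (SE 0.06, 95% interval -0.44 to -0.20, limma adjusted p = 0.00082), or 1.25-fold lower (1.15 to 1.35). NVP arrays were at 2.02, 2.15, 2.09 and 2.18 and Ro25 arrays at 2.28, 2.17, 2.23, 2.30 and 2.01, all above every AP5 array. The dimmer Cry2 probe, whose position spans 2266 bases where other probes span 60, was at -0.05 (95% interval -0.23 to 0.12, limma adjusted p = 0.703). After scaling of the arrays to equal spread the difference of the brighter probe was -0.54.

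Cry1, Per1 and Per3 did not pass the test with AP5, although all of their values were negative. The 2 Cry1 probes were at -0.17 (95% interval -0.32 to -0.02, limma adjusted p = 0.121) and -0.18 (-0.32 to -0.05, adjusted p = 0.0513). The latter lay on the threshold, ran from 0.10 to 0.24 over the vehicle arrays and from -0.18 to 0.17 over the AP5 arrays, and was called when AP5 1, AP5 3 or Ro25 5 was left out. It was also called in 6 of the other settings, among them the replicate block (adjusted p = 0.0235) and the deposited log10 ratio, where the log2 difference was -0.59 (adjusted p = 0.00702). The first Cry1 probe was called with array weights and without AP5 1 or vehicle 3. For the first Cry1 probe the reference channel itself was 0.10 higher on the AP5 arrays (limma adjusted p = 0.0405) and red alone was at -0.07. Per1, a period gene that cAMP and calcium signals induce early in many cells, was at -0.16 (95% interval -0.35 to 0.03, limma adjusted p = 0.238). AP5 1 (-0.64) and AP5 5 (-0.39) were low for Per1, and the other 3 AP5 arrays (-0.17 to -0.13) lay inside the vehicle range of -0.27 to -0.04. Per3 was at -0.12 (limma adjusted p = 0.164), from -1.08 to -0.89 over the AP5 arrays and from -0.93 to -0.66 over the vehicle arrays. Its red signal was dim, with a median of 104, and red alone was at 0.10.

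In the Nr1d loop only Nr1d2 (REV-ERB beta) rose. Its probe (A_52_P303891, chr14:16997805-16997864, minus strand, mm8) was at 0.03, 0.18, -0.07, -0.08 and -0.08 with vehicle and at 0.43, 0.27, 0.28, 0.27 and 0.44 with AP5. It was at 0.04, -0.08, 0.05 and 0.09 with NVP and at 0.15, -0.05, 0.17, -0.04 and 0.23 with Ro25. All 5 AP5 arrays were above every array of the other groups, and vehicle, NVP and Ro25 overlapped. The log2 difference from vehicle was 0.34 (SE 0.07, 95% interval 0.20 to 0.48, limma adjusted p = 0.00182), or 1.27-fold higher (1.15 to 1.40). The brightest of the 3 probes of Nr1d1 (REV-ERB alpha) ran from -1.10 to -0.75 over the AP5 arrays, around the vehicle range of -1.04 to -0.84. The 3 were at 0.06, -0.02 and 0.01, with 95% intervals that together ran from -0.20 to 0.21 and limma adjusted p-values of 0.559, 0.894 and 0.942. The difference between Nr1d1 and Nr1d2 was itself not tested.

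Dbp, the D-box factor of clock output, had the widest spread of the members. It was at -1.05, -1.23, -1.70, -1.05 and -1.13 with vehicle, -0.89, -0.68, -0.63, -0.70 and -1.52 with AP5, -0.89, -0.999, -0.92 and -1.65 with NVP, and -1.09, -1.09, -1.63, -0.83 and -1.04 with Ro25. In each group 1 array was far below the rest, and the AP5 and vehicle groups overlapped through it. The log2 difference of AP5 from vehicle was 0.35 (SE 0.19, 95% interval -0.04 to 0.74, limma adjusted p = 0.214), and its standard error was the largest of the 18 probes.

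The low arrays of Dbp were those lowest in astrocyte markers. The mean log2 ratio of 8 astrocyte marker genes, each by its brightest probe, was 2.82, 2.78, 2.53 and 2.73 on AP5 5, NVP 4, Ro25 3 and vehicle 3, and 3.64 to 4.49 on the other 15 arrays. Dbp was -1.70 to -1.52 on those 4 arrays and -1.23 to -0.63 on the others. No other member had its lowest value on that array in all 4 groups. Without these 4 arrays, a setting added after the data were seen, the Dbp difference of AP5 from vehicle was 0.39 (limma adjusted p = 0.00263), and with the astrocyte mean as a covariate it was 0.24 (adjusted p = 0.0091). Leaving out AP5 5 alone also brought it past the threshold (0.51, adjusted p = 0.0486), while leaving out vehicle 3 alone lowered it to 0.23 (adjusted p = 0.434). With slide as a fixed block the Dbp value turned to -1.01 (adjusted p = 0.508), and array AP5 5 alone links AP5 to the other slides there. On the same 4 arrays the oligodendrocyte lineage mean was 0.95 to 1.15 against 1.23 to 1.86 on the others, the endothelial and fibroblast mean was -4.09 to -3.93 against -3.91 to -3.59, and the neuron marker mean was 4.93 to 5.18, inside the 4.59 to 5.21 of the others.

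**Figure D3:**
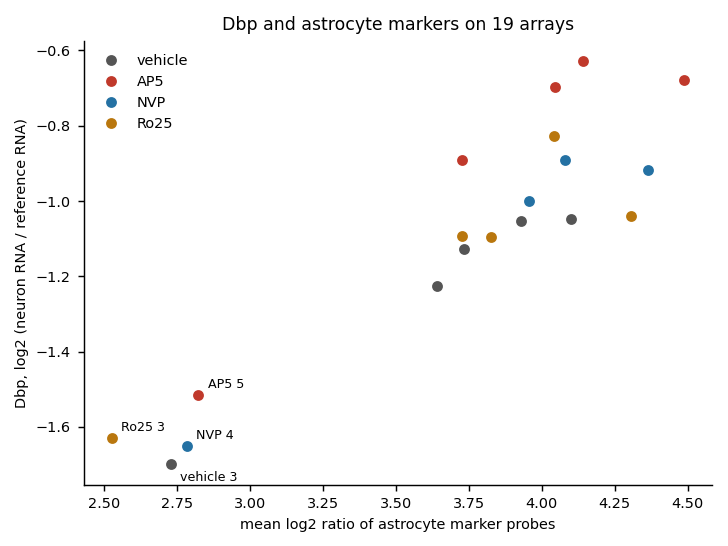
Log2 ratio of Dbp (y axis) against the mean log2 ratio of the astrocyte marker genes (x axis), with 1 point for each of the 19 arrays coloured by treatment. The 4 named arrays, 1 from each group, are low in both, at Dbp values of -1.70 to -1.52.

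NVP changed none of the 18 clock probes against vehicle. Over all probes tested 0% were called as well (limma, 0 of 28650), while 1 member and 2334 of all probes had an unadjusted p under 0.05. The NVP and vehicle arrays overlapped for each of the 18 probes, where 2.64% of all probes had no overlap. The member was Cry2, at -0.14 (95% interval -0.26 to -0.01, limma adjusted p = 0.561). Per2 was at 0.01 with an interval from -0.15 to 0.17, Arntl at -0.03 (-0.14 to 0.09) and Nr1d2 at 0.03 (-0.12 to 0.18). The sizes seen with AP5 for these 3 genes lay outside those intervals. For Arntl, however, the intervals of AP5 and NVP overlapped, and Arntl was not called in the direct comparison of AP5 with NVP. For Dbp the NVP interval ran from -0.30 to 0.53 and held the size seen with AP5.

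Ro25 likewise changed none of the 18 probes, nor 1 of the 28650 probes tested (0% called in limma), and the groups overlapped for each of the 18, where 0.782% of all probes had no overlap. An unadjusted p under 0.05 was reached by 2 members and 1631 of all probes. The members were Per2, at -0.18 (95% interval -0.33 to -0.03, limma adjusted p = 0.781), and 1 Cry1 probe, at -0.14 (-0.27 to -0.01, adjusted p = 0.865). Cry2 was at -0.05 (-0.17 to 0.07), Arntl at -0.01 (-0.12 to 0.10) and Nr1d2 at 0.10 (-0.04 to 0.24). A p above the threshold does not show that a gene was unaffected, and the reach to either side of these intervals was 0.11 to 0.41 over the 18 probes with NVP and 0.11 to 0.39 with Ro25. The 3 comparisons share the vehicle arrays, so their values stand side by side only.

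**Figure D4:**
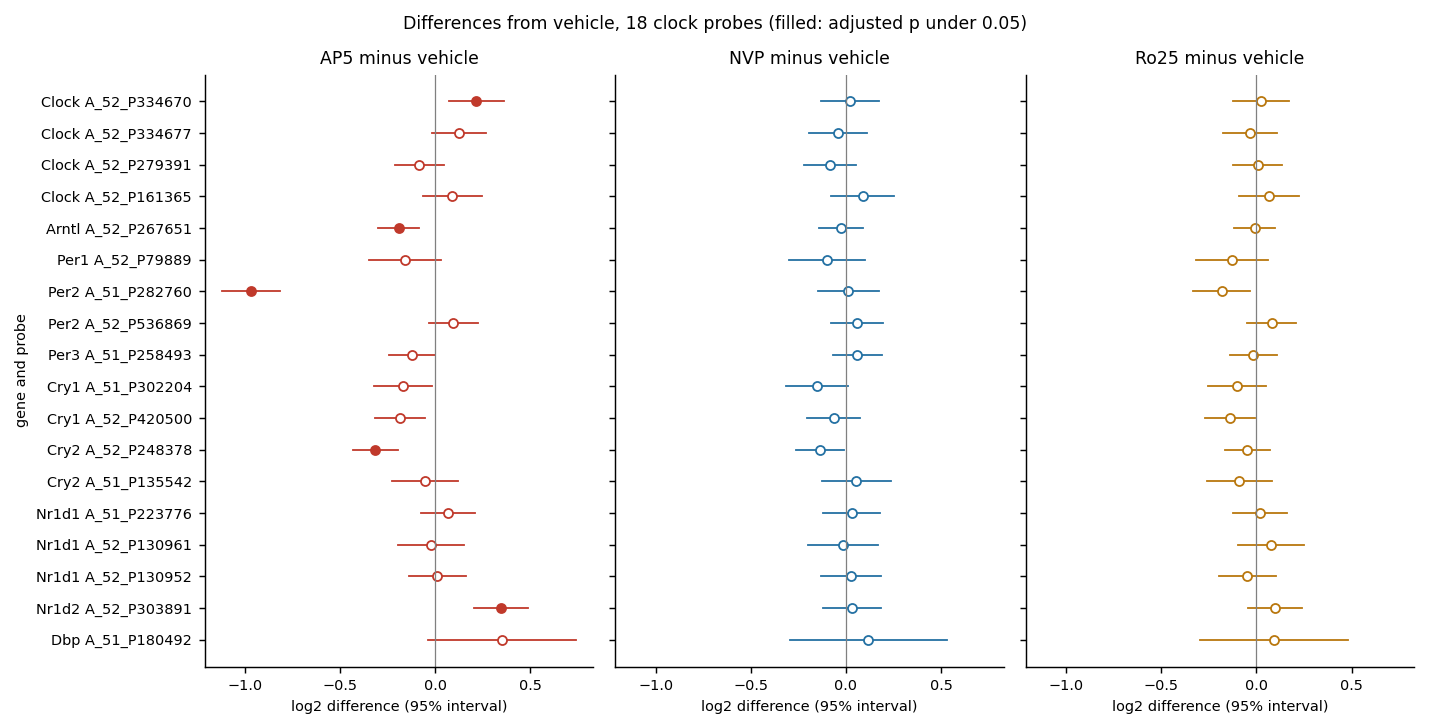
Log2 difference from vehicle (x axis) for the 18 clock probes (rows) with AP5, NVP and Ro25, as points with 95% intervals, filled where the adjusted p is under 0.05. Only the AP5 panel holds filled points, at Per2 (-0.97), Cry2, Arntl, Nr1d2 and Clock.

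Set directly against the other antagonists as dosed, AP5 differed in Per2 and Nr1d2 from both. Against NVP 2 of the 18 probes were called, where 3.73% of all probes were. Per2 was -0.98 lower on the log2 scale (95% interval -1.14 to -0.82, limma adjusted p = 2.29e-07) and Nr1d2 was 0.31 higher (0.16 to 0.46, adjusted p = 0.0162). The Nr1d2 call was lost without NVP 2 and was kept in 14 of 17 other settings. The groups did not overlap for 4 member probes, those of Per2, Nr1d2, Cry2 (-0.18, limma adjusted p = 0.117) and Per3 (-0.18, adjusted p = 0.127), where 7.64% of all probes did not overlap.

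Against Ro25 4 of the 18 probes were called, where 5.66% of all probes were. No slide held arrays of both AP5 and Ro25, so slide and treatment cannot be told apart within a slide here. Per2 was at -0.79 (95% interval -0.94 to -0.63, limma adjusted p = 1.27e-06), Cry2 at -0.27 (-0.39 to -0.15, adjusted p = 0.00641), Arntl at -0.18 (-0.29 to -0.07, adjusted p = 0.0415) and Nr1d2 at 0.25 (0.10 to 0.39, adjusted p = 0.0371). For Cry2, Per2 and Nr1d2 the groups did not overlap, where 6.49% of all probes did not, and for Arntl they did. The Nr1d2 and Arntl calls were both lost without AP5 1, AP5 5, Ro25 2 or Ro25 4, and that of Arntl also without AP5 4, NVP 3, Ro25 1, Ro25 5 or vehicle 4. Among 17 other settings the Nr1d2 call was kept in 8 and the Arntl call in 10. NVP against Ro25 gave no called member (0 of 18 in limma, 0% of all probes, and 1 member and 484 of all probes at an unadjusted p under 0.05). That member was Per2, 0.20 higher with NVP (95% interval 0.03 to 0.36). The NVP and Ro25 arrays overlapped for each of the 18 probes, where 0.740% of all probes had no overlap. In a test of any difference among the 4 groups, Per2 (limma adjusted p = 8.65e-08), Cry2 (0.00437), Nr1d2 (0.00818) and Arntl (0.0489) passed, 4 of 18 probes where 8.49% of all probes did.

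Slide limits every comparison of AP5 with vehicle. AP5 1 to 4 were on slide 1, vehicle 1, 3, 4 and 5 on slide 5, and no slide held both groups, so slide and treatment cannot be told apart within a slide for this pair. The same limit holds for AP5 against Ro25 and for NVP against vehicle, which shared no slide either. On slide 2, the only one with AP5 beside another group, AP5 5 minus the mean of NVP 1 and NVP 3 was -0.75 for Per2, -0.16 for Cry2, -0.29 for Arntl, 0.38 for Clock and 0.40 for Nr1d2, each in the direction of the comparison of AP5 with vehicle. For Per2, Cry2 and Nr1d2 no AP5 array overlapped an NVP array, so that direction was fixed beforehand and is no separate support. Dbp was at -0.61 on slide 2, opposite to its 0.35 over all arrays. These values rest on 1 AP5 array, whose astrocyte marker mean was 2.82 against 4.08 and 4.37 on NVP 1 and NVP 3. The called Clock probe was the highest of its group on the array lowest in astrocyte markers in 3 of the 4 groups. With slide as a fixed block, which links AP5 to vehicle only through AP5 5, vehicle 2 and the NVP and Ro25 arrays, none of the 5 calls against vehicle was kept. Per2 was then at -0.72 (limma adjusted p = 0.346), Cry2 at -0.41 (0.482), Arntl at -0.50 (0.367), Clock at 0.39 (0.541) and Nr1d2 at 0.28 (0.636). In that fit the median standard error over all probes rose from 0.08 to 0.23 and 11 probes in all were called. For AP5 against NVP that fit adds nothing further, since its estimate for Per2 is the slide 2 difference of the 1 array AP5 5.

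The rest of the clock pathway was taken from lists of 21 other genes, of which 20 had a probe that passed the filter (35 probes, all genes but Arntl2). With AP5 7 of these 35 probes rose, 5 fell and 23 did not pass, which is 34.3% called where 17.0% of all probes were. Their median log2 difference was 0.0084, where it was 0.01 over all probes. The called probes belonged to 9 genes, Fbxw11, Tef, Usp2, Hlf, Bhlhe40, Ciart, Rora, Nfil3 and Bhlhe41. NVP and Ro25 changed none of the 35 in limma.

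**Figure D5:**
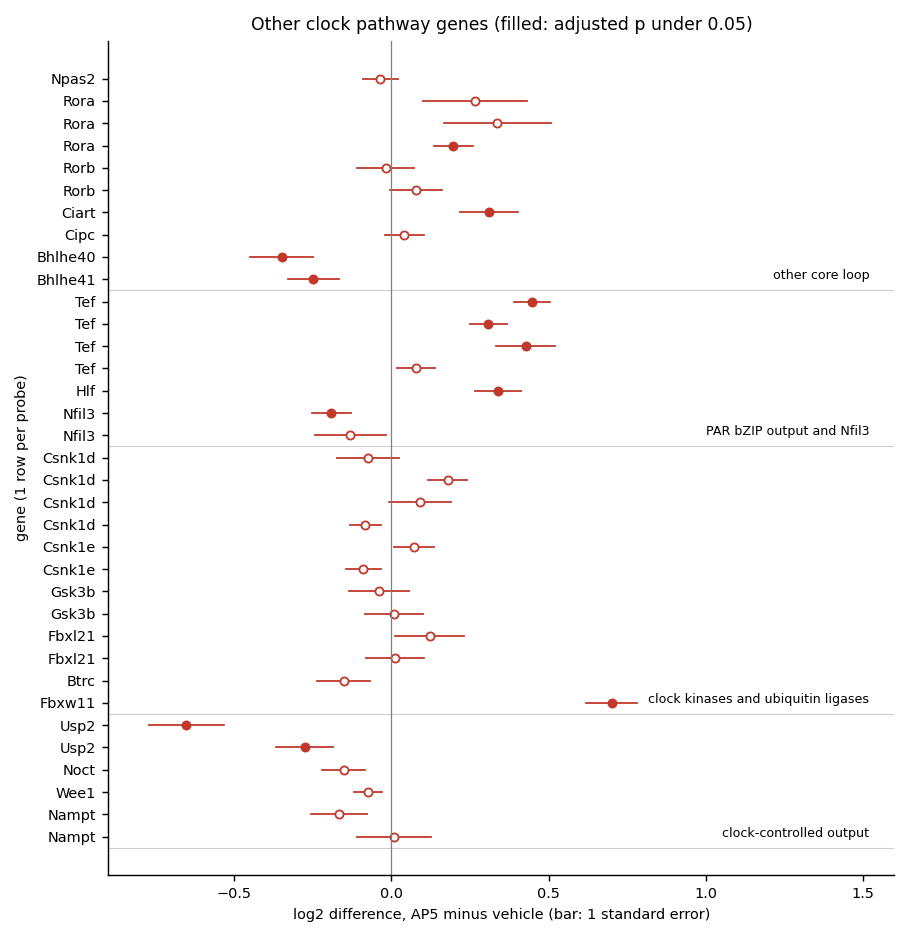
Log2 difference of AP5 from vehicle (x axis, bars of 1 standard error) for 35 probes of 20 other clock pathway genes (rows, grouped by list), filled where the adjusted p is under 0.05. Of the filled points 7 are above 0 and 5 below, with Fbxw11 highest at 0.70 and Usp2 lowest at -0.65.

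Called genes included the relatives of Dbp. Tef and Hlf are the other PAR bZIP factors and bind the same D-box as Dbp. Of the 4 Tef probes 3 rose, by 0.45 (SE 0.06, limma adjusted p = 3.31e-05), 0.31 (SE 0.06, adjusted p = 0.00162) and 0.43 (SE 0.09, adjusted p = 0.00442), and the other was at 0.08 (adjusted p = 0.403). Hlf went from 2.63 with vehicle to 2.97 with AP5, a rise of 0.34 (SE 0.07, limma adjusted p = 0.00349) that was not called after the arrays were scaled to equal spread and turned to -0.090 with slide as a fixed block. Nfil3, which competes with these factors at the D-box, fell by 0.19 (SE 0.06, limma adjusted p = 0.0385) at 1 of 2 probes, and the other was at -0.13 (adjusted p = 0.463). The Nfil3 call was lost without AP5 1, 2, 3 or 5 or vehicle 2, 3 or 5.

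Of the 12 probes of clock kinases and ubiquitin ligases 1 was called (8.3%), below the share of all probes. That was Fbxw11, a beta-TrCP ubiquitin ligase subunit that recognises phosphorylated period proteins, which rose from 1.81 to 2.51, by 0.70 (SE 0.08, limma adjusted p = 1.07e-05). Of the 6 probes of clock-controlled output genes 2 were called (33.3%), both of Usp2. Usp2, a deubiquitinase whose transcript is a clock output, fell at both probes, by 0.65 (SE 0.12, limma adjusted p = 9.29e-04) and 0.28 (SE 0.09, adjusted p = 0.0437). The call of the latter probe was kept in 12 of 19 fits that left out 1 array and in 7 of 15 other settings. It was lost without AP5 1 or 5, NVP 4, Ro25 1 or vehicle 3, 4 or 5. In such counts, a fit without an NVP or Ro25 array keeps the difference of AP5 from vehicle. It changes only the shared spread and the adjustment, so it is a weaker check. No probe of the kinase genes Csnk1d, Csnk1e and Gsk3b passed the test.

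In the core loop Bhlhe40 (listed in the files as Bhlhb2), an E-box repressor, fell by 0.35 (SE 0.10, limma adjusted p = 0.0211), and Bhlhe41 was also called, lower. The Bhlhe40 call was kept in 17 of 19 fits that left out 1 array and in 13 of 17 other settings. It was lost without AP5 5 or vehicle 5 and after the arrays were scaled to equal spread. The Bhlhe41 call was kept in only 9 of 19 fits that left out 1 array and in 6 of 17 other settings. Its losses came without AP5 1, 2, 4 or 5, NVP 1 or 2, Ro25 4 or vehicle 1, 4 or 5. Ciart (listed as Gm129), a repressor of the Clock and Arntl pair, rose by 0.31 (SE 0.09, limma adjusted p = 0.0253). That call was kept in 14 of 19 fits that left out 1 array and in 10 of 17 other settings. Every loss in the former came without an AP5 or vehicle array (AP5 1 or 5 or vehicle 1, 4 or 5). Rora, a receptor that opposes the Nr1d proteins at their sites, rose by 0.20 (SE 0.06, limma adjusted p = 0.0346) at 1 of 3 probes, and that value turned to -0.069 with slide as a fixed block. The Rora call was kept in 12 of 19 fits that left out 1 array and in 7 of 14 other settings. It was lost without AP5 1, 2, 3 or 4 or vehicle 2, 3 or 4. Of the 12 calls in the pathway lists none was kept with slide as a fixed block.

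Markers of cell types are given beside these results, to be read against the 10.2% of all probes that were called higher and the 6.76% called lower with AP5. Of 19 neuron marker probes 9 rose (47.4% called), and the mean over the 10 neuron genes ran from 5.00 to 5.21 over the AP5 arrays and from 4.59 to 4.98 over the vehicle arrays. None of 15 astrocyte probes was called, with means of 2.82 to 4.49 and 2.73 to 4.10. Of 11 microglia probes 3 fell (27.3%), with means of -1.92 to -1.71 and -1.81 to -1.62. Of 16 oligodendrocyte lineage probes 2 rose and 1 fell (18.8%), and of 5 endothelial and fibroblast probes 1 fell (20%), shares near that of all probes. The neuron mean was 4.82 with vehicle, 5.11 with AP5, 5.02 with NVP and 5.01 with Ro25. The microglia mean was -1.72, -1.83, -1.80 and -1.81 in the same order. NVP and Ro25 thus lay on the same side of vehicle as AP5 in both lists, though none of their probes was called. The log2 ratios over all probes were spread more widely with AP5, with an SD of 1.55 or more on every AP5 array and less on every vehicle array. Neuron marker means lay far above 0 and microglia means below it. Whether the wider spread had a part in these marker differences was not tested. The microglia genes Itgam and P2ry12, the endothelial genes Pecam1 and Cdh5 and the oligodendrocyte gene Mog did not pass the filter. The part of these markers in the clock results was not tested, apart from the astrocyte mean, with which as a covariate Per2 was at -0.95, Cry2 at -0.31, Arntl at -0.21, Clock at 0.24 and Nr1d2 at 0.35, all still called.

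The genes whose levels followed the clock genes most closely over the 19 arrays are given as a description, since the arrays share treatments, slides and the reference. For Per2 they were Spred2 (Pearson r = 0.99), Phlda1 (0.98) and Nab1 (0.96), which with AP5 were at -1.17, -1.19 and -0.64 from vehicle. For Cry2 they were Pprc1 (0.93), Ube2d1 (0.92) and Kcnv1 (0.91). For Nr1d2 they were Twsg1, Txlna and Sec22a (0.95 each). Spred2 encodes an inhibitor of Ras-ERK signalling and Nab1 a co-repressor of EGR factors.

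Across arrays the red signal had medians of 135.5 to 177.8 and the green signal medians of 88.7 to 106.8, and between 24924 and 28531 probes had a red signal well above background. The number of arrays limits the precision, with a median standard error of 0.07 over the 18 member probes in AP5 against vehicle.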

How the data were processed

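Two-colour Agilent mouse arrays (45018 features, 41174 gene probes) were read for 19 samples. Per the file headers, the deposited spot intensity of each channel was extracted with Feature Extraction 9.5.3.1. Version 11.0 is given instead in the submitters' processing notes. The log10 ratio (red to green) in the deposited files was background-subtracted and dye-normalized, per the file headers. The authors' own processed values, as log2 numbers, cover 20674 probes, including 10 clock probes, and each array matched the ratios computed here with correlations of 0.9986 to 0.9998 and medians of 0.0345 to 0.0478, so direction and scale are those of log2 red over green and the centring is unknown. Probe positions are in mm8, per the file headers.

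Spots marked as not uniform or as outliers in the feature or its background were left out (117 to 266 gene spots per array and 1642 on vehicle 5). Mean intensities were corrected with normexp (offset 50) against the local median background and normalized by loess within each array. Spots of 1 probe were averaged, and probes with red well above background on at least 4 arrays were kept (28653, of which 28650 could be fitted). The 4 groups entered 1 limma model (version 3.58.1, R 4.3.3, with version 1.17.8 of data.table, statmod 1.5.0 and jsonlite 2.0.0) with a mean per group over all 19 arrays and two-sided tests, with Benjamini-Hochberg adjustment over all probes within a comparison. The code was tested on simulated data.

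The members and gene lists were chosen with earlier results of these data known. Every member probe is described, the brightest standing for its gene where 1 is needed. Of the other clock pathway genes those called are named, with values for the 8 with the smallest p. Of the pathway lists 2 genes are not reported here. The 3 most correlated genes are given for the 3 members with the smallest F-test p. Replicate numbers did not pair the samples, since of 27 pairs of arrays with the same number 8 had a correlation of deviations over 0.1 (median -0.21). AP5 5, NVP 4, Ro25 3 and vehicle 3, the arrays lowest in astrocyte markers, correlated with each other at 0.61 to 0.81. Samples may thus be related across treatments in a way the labels do not give, and the model has no term for it. Alternatives changed the marked spots, background correction, normalization, filter, slide or replicate block, samples, array weights or an astrocyte covariate.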

Additional observations from a re-analysis of the deposited data

Results flagged for a closer look

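In 3 of the 72 combinations of member probe and group 1 array stood far from the rest of its group, and chance alone marks about 1 in 20 such groups. For Dbp, vehicle 3 was at -1.70, where the other vehicle arrays were at -1.23 to -1.05. For Dbp with NVP, NVP 4 was at -1.65, where the other 3 were at -0.999 to -0.89. For the dimmer Per2 probe, Ro25 3 was at 0.24, where the other Ro25 arrays were at 0.10 to 0.13. These 3 arrays were each the lowest of their group in astrocyte markers.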

How the results depend on the processing

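For AP5 against vehicle the 5 member probes called became 2 with normexp run on every spot without leaving out the marked, 3 of 10 in the authors' processed table, 0 with slide as a fixed block and 8 with the astrocyte mean as a covariate. Leaving out 1 array at a time gave 4 to 6. The calls over all probes moved the same way. They went from 4869 to 960 with normexp on all spots and to 2818 in the authors' table. With slide as a fixed block they were 11, and with the astrocyte covariate 7841. For AP5 against NVP the 2 became 1 with slide as a fixed block (from array AP5 5 alone), 1 without the 4 arrays lowest in astrocyte markers, 4 with array weights and 5 with the astrocyte covariate (1 to 2 leaving out 1 array). For AP5 against Ro25 the 4 became 1 with normexp on all spots, 1 with background-only marks ignored, 0 with slide as a fixed block and 2 with only the 2 groups compared (2 to 4 leaving out 1 array). For any difference among the 4 groups the 4 became 2 with normexp on all spots, 2 in the authors' table, 2 with background-only marks ignored, 0 with slide as a fixed block and 7 with the astrocyte covariate (3 to 4 leaving out 1 array). The cause of these changes was not tested, except that the authors' table holds fewer member probes. NVP and Ro25 against vehicle and NVP against Ro25 gave 0 in every setting run. With the replicate number as a block, which was not taken as a pairing, the counts were 5 for AP5 against vehicle, 1 against NVP, 2 against Ro25 and 3 for any difference. Ignoring background-only marks and leaving out the 4 arrays were settings added after the data were seen. Over the 17 settings other than leaving out 1 array, Per2 was called against vehicle in 16 (-1.27 to -0.72) and Nr1d2 in 16 (0.28 to 0.36), Arntl in 15, Cry2 in 14 of 16 and Clock in 6 of 16, with no turn of direction. Hlf (-0.090) and Rora (-0.069) turned direction with slide as a fixed block.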
